A study of Homo sapiens with 8 samples.

Results

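The genes described here encode the working parts of the unfolded protein response of the endoplasmic reticulum (ER) and of the integrated stress response. They are 36 genes listed by name for their roles, with earlier results of these data known. They comprise 11 ER chaperones, 4 protein disulfide isomerases, 4 genes of ER-associated degradation, 4 stress sensors and kinases, 6 transcription factors, 3 effectors of the ATF4 and DDIT3 branch, and 4 genes of the translocon, COPII coats and the ER membrane. Of these, 35 were found among 18133 measured genes, and all 35 were among the 13885 genes tested. WFS1 is not analysed here.

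Proteins that enter the ER are folded there by chaperones and disulfide isomerases, and failed proteins are sent to the cytosol for destruction. When unfolded proteins build up, the membrane sensors encoded by ATF6, ERN1 and EIF2AK3 (PERK) raise chaperone and degradation genes and lower general protein synthesis. PERK and the amino acid sensor GCN2, encoded by EIF2AK4, act on the initiation factor eIF2, which favours translation of ATF4, a transcription factor for amino acid and stress genes. Cells of T-cell acute lymphoblastic leukemia (T-ALL) with active NOTCH1 and MYC make protein at a high rate, and ER folding has to keep pace with it.

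The cells were DND41, an established human T-ALL cell line, grown in RPMI medium with 10% fetal bovine serum and given doxycycline for 72 h. Doxycycline switched on a short hairpin RNA against SIRT1, a nuclear NAD-dependent deacetylase, or a control hairpin. There were 3 libraries with the SIRT1 hairpin sh1, 3 with the SIRT1 hairpin sh3 and 2 with the control hairpin (A and C), and all of them, controls included, had received doxycycline. The meaning of the digits in sh1 and sh3 is not in the labels, and control B was not analysed here. The model is a single cell line. Plating was in triplicate, but the labels do not tie the libraries to separate wells or to separate experiments, so the p-values measure the spread between these libraries, which may be technical.

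Each value is a count per gene that the authors normalized between libraries, and these sum to between 33087820 and 34072666 per library. The raw depth is unknown. Differences are given as log2 differences of value + 1 ± the standard error, with p-values from limma, a linear model fitted to all genes, adjusted by the Benjamini-Hochberg method over all genes tested. A gene is said to rise or fall, or to be called, at an adjusted p under 0.05. Where the libraries of groups are said to lie apart, the share of all genes that do so was not counted. SIRT1 itself had 1259, 1312 and 1329 normalized counts in sh1, 1099, 1217 and 1179 in sh3 and 1745 and 1919.5 in the controls, a log2 difference of -0.57 ± 0.063 (adjusted p = 0.00030) for the mean of the hairpins against control. The knockdown at the mRNA level was thus partial, and the hairpins differed from each other by 0.16 ± 0.063 (adjusted p = 0.14). The title and genotype of library sh3 C place it with the SIRT1 hairpins while its description names the control hairpin. It was kept with sh3, since its Spearman correlation across genes was at least 0.9955 with the other sh3 libraries and at most 0.9925 with the controls, and results without it are given where they differ.

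Of 10 T lineage markers 8 had a value, and their summed level was 55631 to 58496 in sh1, 47602 to 48375 in sh3 and 67305 to 70809.5 in the controls. All 8 fell for the mean of the hairpins, among them CD7 at -0.61 ± 0.056 (adjusted p = 8.9e-05) on the log2 scale, and CD1A, which averaged 528 ± 31.3 in sh1, 337 ± 23.9 in sh3 and 849 ± 116 in the controls. With sh1 6 of the 8 fell and with sh3 all 8, beside 3.43% and 9.19% of all genes tested. CD3G did not fall with sh1, at 8187 to 8794 normalized counts beside 8209 to 8331 in the controls. Of 8 B and plasma cell markers 6 had a value, with sums of 23532 to 26140 in sh1, 30311 to 31850 in sh3 and 31673 to 33928 in the controls, mostly from MZB1 and CD79A, the only 2 called for the mean of the hairpins. CD79A differed by -0.25 ± 0.047 (adjusted p = 0.0073) for the mean, not called without control C (adjusted p = 0.12), by -0.43 ± 0.053 (adjusted p = 0.00099) for sh1 and by -0.06 ± 0.053 (adjusted p = 0.48) for sh3. The median log2 difference of the 6 for the mean was 0.08, with 3 above 0 and values up to 0.69, and CD79B had 389 to 443 normalized counts in sh1, 645 to 677 in sh3 and 436 to 466 in the controls. Sums of myeloid markers were 14.3 to 67.4 in sh1, 22.2 to 33.9 in sh3 and 33.4 to 43.0 in the controls. Erythroid sums were 10.5 to 16.8 in sh1, 14.5 to 21.4 in sh3 and 11.5 to 24.5 in the controls. Those of adherent cell markers were 48.9 to 59.5 in sh1, 62.8 to 77.5 in sh3 and 50.6 to 54.2 in the controls. Only 1 of the 5 adherent cell markers with a value, KRT8, was among the genes tested, and it was not called. The T lineage sum was below the controls in both hairpin groups, the B and plasma cell sum in sh1 with sh3 overlapping the controls, and the adherent sum was above the controls in sh3. Their part in the results below was not tested. In bulk RNA, fewer cells of a kind and less RNA per cell cannot be told apart, for these and all other values here.

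The promoters of several members carry short sequences known from this pathway. The ER stress response element is CCAAT followed after 9 bases by CCACG, a second form is ATTGG followed after 1 base by CCACG, TGACGTGG is a form bound by ATF6 and XBP1 in vitro, and TGATGNAA is the core of the amino acid response element of ATF4 targets. RefSeq promoter windows of 300 bases (250 before to 50 after the annotated start, GRCh38.p14) were at hand for 33 of the 35 members, all but PDIA3 and SEC24D, and were searched on both strands. The first element was found in 7 members (CALR, CANX, CRELD2, HSP90B1, HSPA5, PDIA6 and XBP1), against 25 of 27305 genes in all (0.0916%). The second was in 3 (HERPUD1, HYOU1 and SDF2L1), against 19 genes in all (0.0696%). TGACGTGG was found in HYOU1, against 253 genes (0.927%), where it overlaps a copy of the second element. TGATGNAA was found in CEBPG, CHAC1, CREB3L2 and HERPUD1, against 1217 genes (4.46%). Some members have more than 1 window, and a match in any of them was counted. CEBPG, CREB3L2, PDIA6 and XBP1 matched in 1 of 2 windows and CANX in 3 of 4. The CREB3L2 match lay 16 to 23 bases after a start inside the gene, and its window at the 5′ end of the gene held none. The promoters below are those of 6 members that hold a match and were called in at least 1 comparison; each kind of match is among them. CALR, XBP1, HERPUD1, SDF2L1, CEBPG and CREB3L2 also hold a match and were called in at least 1 comparison, and their promoters are not printed. The sequences are shown 5′ to 3′ on the gene's strand with the matched blocks in capitals. HSPA5 (chr9:125241294-125241593, minus strand) holds a single copy of the first element in the forward direction. HSP90B1 (chr12:103930160-103930459, plus strand) holds a copy in each direction. CANX (chr5:179698679-179698978, plus strand) and PDIA6 (chr2:10812736-10813035, minus strand) hold a forward copy. HYOU1 (chr11:119057156-119057455, minus strand) holds a pair of reversed copies of the second element, and CHAC1 (chr15:40953221-40953520, plus strand) holds a reversed amino acid response core.
HSPA5: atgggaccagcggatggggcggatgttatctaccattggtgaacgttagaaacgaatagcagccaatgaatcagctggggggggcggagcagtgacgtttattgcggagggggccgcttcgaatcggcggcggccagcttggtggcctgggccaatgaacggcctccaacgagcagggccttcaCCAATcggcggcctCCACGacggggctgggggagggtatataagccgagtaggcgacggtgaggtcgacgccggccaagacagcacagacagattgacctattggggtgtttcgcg
HSP90B1: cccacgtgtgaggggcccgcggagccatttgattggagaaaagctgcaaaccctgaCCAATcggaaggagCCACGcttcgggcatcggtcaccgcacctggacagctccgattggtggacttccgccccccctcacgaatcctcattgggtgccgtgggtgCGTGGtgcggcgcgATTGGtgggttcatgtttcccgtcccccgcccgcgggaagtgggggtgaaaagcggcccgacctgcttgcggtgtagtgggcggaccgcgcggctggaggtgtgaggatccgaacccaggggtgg
CANX: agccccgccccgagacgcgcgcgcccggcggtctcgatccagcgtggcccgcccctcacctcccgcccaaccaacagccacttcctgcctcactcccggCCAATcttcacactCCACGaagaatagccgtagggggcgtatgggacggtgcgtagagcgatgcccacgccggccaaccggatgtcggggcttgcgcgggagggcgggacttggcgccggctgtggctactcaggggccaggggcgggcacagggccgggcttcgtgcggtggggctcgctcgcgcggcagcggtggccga
PDIA6: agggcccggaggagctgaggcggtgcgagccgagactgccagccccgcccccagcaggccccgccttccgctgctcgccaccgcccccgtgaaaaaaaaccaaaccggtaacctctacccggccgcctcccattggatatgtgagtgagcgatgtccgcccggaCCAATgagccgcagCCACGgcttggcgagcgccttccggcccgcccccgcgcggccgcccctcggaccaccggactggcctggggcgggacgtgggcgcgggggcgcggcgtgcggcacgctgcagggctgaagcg
HYOU1: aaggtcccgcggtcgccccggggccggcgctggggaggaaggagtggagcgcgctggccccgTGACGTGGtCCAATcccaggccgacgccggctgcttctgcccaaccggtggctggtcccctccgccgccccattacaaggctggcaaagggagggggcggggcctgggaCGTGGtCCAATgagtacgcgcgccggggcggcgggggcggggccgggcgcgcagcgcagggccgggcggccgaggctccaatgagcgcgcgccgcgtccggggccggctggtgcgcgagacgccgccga
CHAC1: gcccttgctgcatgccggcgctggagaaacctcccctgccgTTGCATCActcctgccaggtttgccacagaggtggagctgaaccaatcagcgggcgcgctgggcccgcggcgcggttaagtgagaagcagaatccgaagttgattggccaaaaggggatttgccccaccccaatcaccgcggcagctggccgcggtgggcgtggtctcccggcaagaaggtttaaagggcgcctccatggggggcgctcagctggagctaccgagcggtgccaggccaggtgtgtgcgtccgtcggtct

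Taken over the mean of the hairpins against control, 2 of the 35 members rose and 12 fell at an adjusted p under 0.05, while 6.55% of all genes tested rose and 6.19% fell. The members that rose were PPP1R15A and SEC24D. Those that fell were SDF2L1, PDIA3, PDIA4, HERPUD1, EIF2AK4, XBP1, ATF4, CEBPB, TRIB3, CHAC1, SEC61A1 and SEC61B. The median log2 difference of the members was -0.06, and that of all genes tested was -0.002. The count of 14 called members depended on single libraries, with 0 called by limma without control C (12 at an unadjusted p under 0.05), 8 without control A, 8 without sh3 A and 9 without sh1 B.

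The hairpins differed from each other in this gene group. For sh1 against control 1 member rose and 10 fell, beside 2.88% of all genes that rose and 3.43% that fell. For sh3 against control 9 rose and 7 fell, beside 9.36% and 9.19% of all genes. The median log2 difference was -0.15 for sh1 and 0.00 for sh3, and both comparisons use the same control libraries. Set directly against sh3, sh1 had 0 members higher and 15 lower, while 5.61% of all genes were higher and 5.83% lower in sh1. These 15 were HSPA5, HSP90B1, CALR, CANX, DNAJB9, MANF, HYOU1, PDIA6, P4HB, EDEM1, DDIT3, CEBPB, TRIB3, PPP1R15A and SEC24D. Of the 35 estimates 29 were below 0, and the median was -0.15. The count of 15 was 8 without sh1 B, 8 without sh1 C, 5 without sh3 A, 7 without sh3 B and 11 without sh3 C, always lower in sh1. Without sh3 C, the library with the conflicting description, 12 members were called for the mean of the hairpins. In that fit 10 were called for sh1 against control and 14 for sh3 against control. The count of 11 called for sh1 against control was 2 without control C, 4 without sh1 B and 7 without sh1 C. The count of 16 for sh3 against control was 6 without control C, 9 without sh3 A and 10 without sh3 B.

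**Figure D1:**
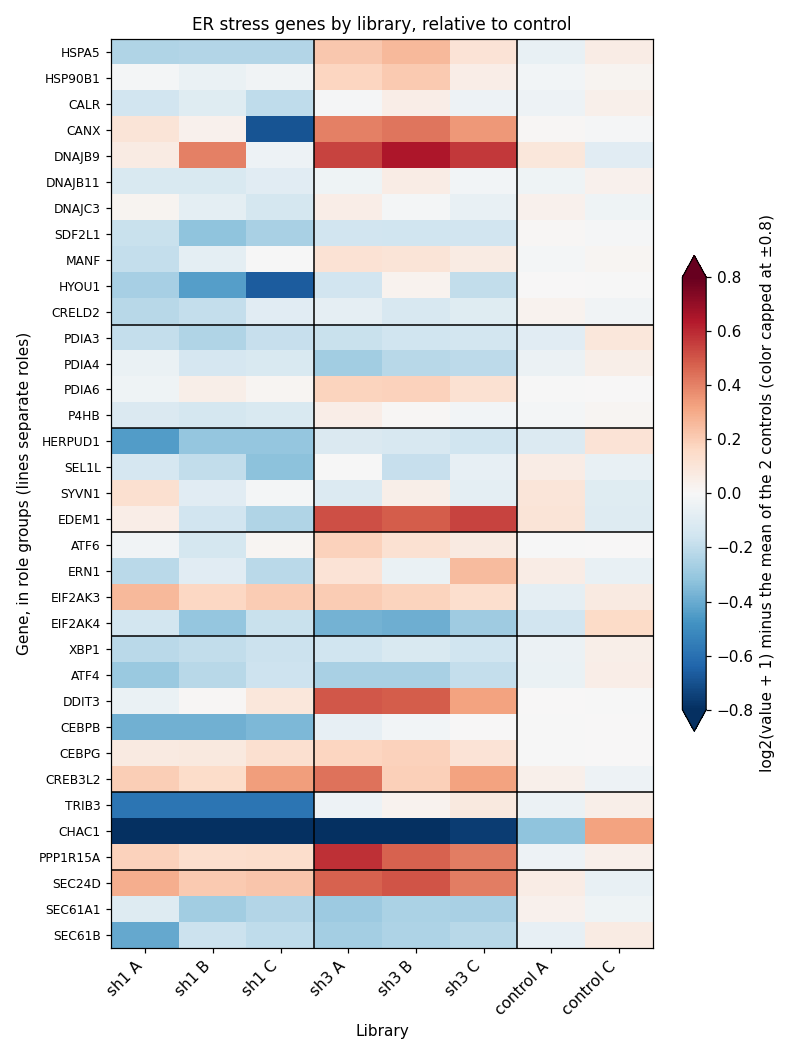
Log2 level of each of the 35 members in each of the 8 libraries, as the difference from the mean of the 2 control libraries, with libraries in columns (sh1, sh3, control), genes in rows grouped by role, red for higher, blue for lower and the color capped at ±0.8. TRIB3, CEBPB and HYOU1 are low in the sh1 columns, EDEM1, DNAJB9 and PPP1R15A are high in the sh3 columns, and CHAC1 is low in both.

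**Figure D2:**
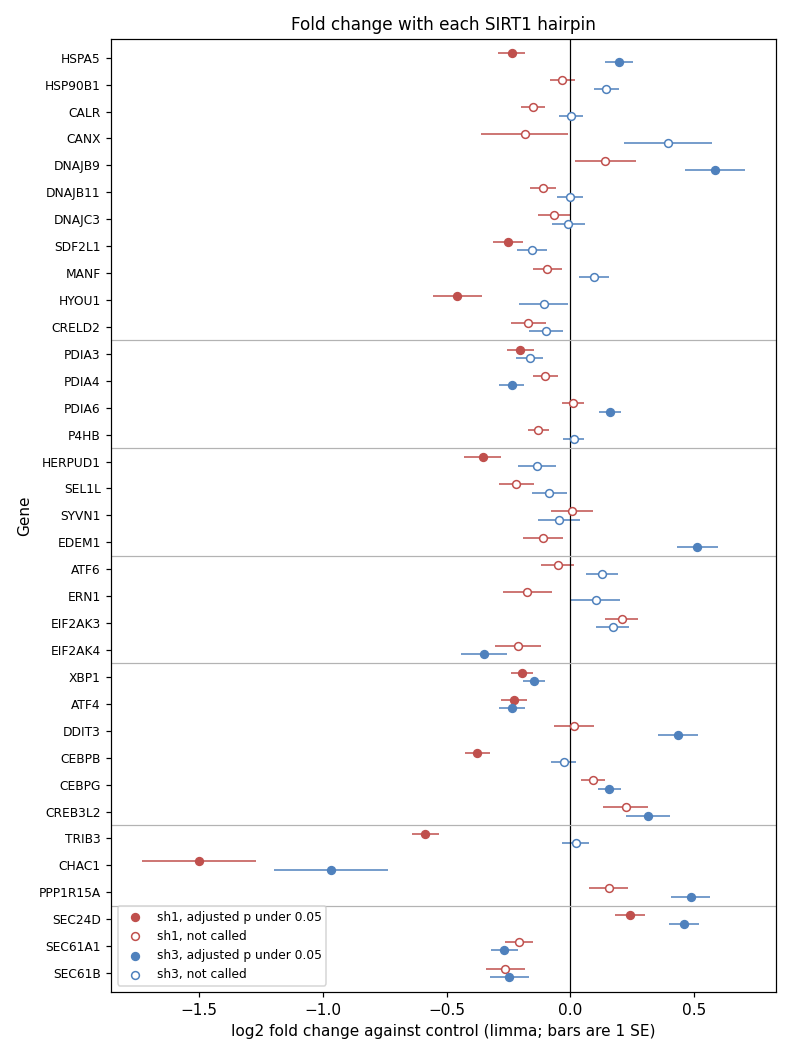
Log2 fold change against control of each of the 35 members, in rows, for sh1 (red, upper point) and sh3 (blue, lower point), with bars of 1 SE and filled points for an adjusted p under 0.05. The sh1 and sh3 values share the 2 control libraries, so the plot shows each hairpin's own values and no measure of their likeness. For 29 of 35 members the sh1 value is the lower of the pair.

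Among the ER chaperones, 7 of 11 differed between the hairpins. Against control, 3 of 11 fell with sh1 (HSPA5, SDF2L1 and HYOU1) and 2 rose with sh3 (HSPA5 and DNAJB9). The 7 that differed were all lower in sh1 than in sh3. Beside these, 3.43% of all genes tested fell with sh1, 9.36% rose with sh3 and 5.83% were lower in sh1 than in sh3. HSPA5 encodes BiP, the main Hsp70 chaperone of the ER lumen and the usual marker of the unfolded protein response (chr9:125234853-125241330, minus strand). It had 6652, 6686 and 6665 normalized counts in sh1, 9129, 9416 and 8489 in sh3 and 7534 and 8195 in the controls. Every sh1 library lay below both controls and every sh3 library above them. The log2 difference was -0.24 ± 0.055 (adjusted p = 0.030) for sh1, 0.20 ± 0.055 (adjusted p = 0.031) for sh3 and -0.02 ± 0.049 (adjusted p = 0.83) for their mean, the hairpins lying on opposite sides of control. Between sh1 and sh3 it was -0.43 ± 0.049 (adjusted p = 0.00021), or 1.35-fold lower in sh1. That call held on leaving out any 1 of the 8 libraries. The call of sh1 against control was lost without sh1 B (adjusted p = 0.079), sh1 C (adjusted p = 0.055) or control C (adjusted p = 0.24), and that of sh3 without sh3 A (adjusted p = 0.093), sh3 B (adjusted p = 0.11) or control A (adjusted p = 0.21).

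HSP90B1 encodes GRP94, the Hsp90 of the ER. It had 14611, 14263 and 14466 normalized counts in sh1, 16639, 17075 and 15344 in sh3 and 14554 and 14983 in the controls, so that only the sh3 libraries stood clear of the rest. Its log2 difference was -0.18 ± 0.045 (adjusted p = 0.026) between sh1 and sh3, a call lost on leaving out sh1 B or C, or sh3 A or B (adjusted p = 0.058 to 0.12). Against control, the difference of 0.15 ± 0.050 (adjusted p = 0.067) for sh3 was not called. HYOU1 encodes the nucleotide exchange factor GRP170. It had 3016, 2675 and 2292 in sh1, 3259, 3701 and 3171 in sh3 and 3631 and 3630.3 in the controls. All sh1 libraries lay below the others, while sh3 spanned the controls. HYOU1 differed by -0.46 ± 0.100 (adjusted p = 0.023) for sh1 against control and by -0.35 ± 0.089 (adjusted p = 0.027) for sh1 against sh3. The first call was lost without sh1 B (adjusted p = 0.060), control A (adjusted p = 0.10) or control C (adjusted p = 0.14) and the second on leaving out sh1 B or C, or sh3 A or B (adjusted p = 0.059 to 0.11).

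The lectin chaperones calreticulin and calnexin hold glycoproteins during folding. CALR had 15588, 16263 and 15121 normalized counts in sh1, 17259, 18053 and 16916 in sh3 and 16916 and 17838 in the controls. The sh1 libraries were below all others, and sh3 overlapped the controls. CALR differed by -0.15 ± 0.044 (adjusted p = 0.045) between sh1 and sh3, and the call was lost on leaving out any sh1 library, or any sh3 library (adjusted p = 0.055 to 0.18). Its difference of -0.15 ± 0.049 (adjusted p = 0.099) for sh1 against control was not called. CANX had 2201, 2102 and 1270.4 in sh1, 2716, 2764 and 2614 in sh3 and 2065 and 2038 in the controls. The sh3 libraries were the highest, and sh1 C lay far below the other sh1 libraries. The CANX value in sh3 against control, 0.39 ± 0.18 on the log2 scale (adjusted p = 0.15), was not called. The log2 difference between sh1 and sh3 was -0.58 ± 0.16 (adjusted p = 0.035), and -0.33 without sh1 C (adjusted p = 0.0045). It was not called on leaving out any sh3 library, or control C (adjusted p = 0.0501 to 0.10).

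In both DNAJB9 and MANF the sh3 libraries were the highest of all, but only DNAJB9 was called for sh3 against control. DNAJB9 encodes ERdj4, a co-chaperone that acts on BiP and on IRE1. It had 506, 638 and 469.8 normalized counts in sh1, 705, 756 and 717 in sh3 and 514 and 454 in the controls, and sh1 overlapped the controls. It was 1.5-fold higher in sh3 than in control, a log2 difference of 0.59 ± 0.12 (adjusted p = 0.0074) that was not called without control C (adjusted p = 0.087), and differed by -0.44 ± 0.11 (adjusted p = 0.022) between sh1 and sh3. That difference was not called on leaving out sh1 A or C, or any sh3 library (adjusted p = 0.056 to 0.085). MANF, a secreted protein that binds BiP, had 2576, 2788 and 2935 in sh1, 3194, 3164 and 3086 in sh3 and 2917 and 2974 in the controls. Against control, MANF in sh3 was at 0.10 ± 0.060 on the log2 scale (adjusted p = 0.31), not called. Its difference of -0.19 ± 0.054 (adjusted p = 0.044) between sh1 and sh3 was not called on leaving out sh1 A or B, or any sh3 library, or either control (adjusted p = 0.057 to 0.14).

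SDF2L1, part of the BiP and ERdj3 complex, was the only chaperone called for the mean of the hairpins. It had 1415, 1286 and 1342 normalized counts in sh1, 1446, 1436 and 1441 in sh3 and 1615 and 1595 in the controls, with every hairpin library below both controls. The log2 difference was -0.20 ± 0.055 (adjusted p = 0.033) for the mean of the hairpins and -0.25 ± 0.062 (adjusted p = 0.036) for sh1. The pooled call was lost on leaving out sh1 B, or sh3 A or B, or either control (adjusted p = 0.063 to 0.17), and the sh1 call on leaving out sh1 B or C, or sh3 A or B, or either control (adjusted p = 0.057 to 0.16). The remaining 3 chaperones passed no test. DNAJB11 (ERdj3) averaged 2689 ± 37.9 in sh1, 2906 ± 101 in sh3 and 2906 ± 101 in the controls. DNAJC3 (P58IPK, an inhibitor of eIF2 kinases) averaged 1944 ± 111 in sh1, 2020.4 ± 83.6 in sh3 and 2031 ± 72 in the controls. CRELD2, a secreted ER stress marker, averaged 901 ± 42.1 in sh1, 946 ± 19.9 in sh3 and 1013 ± 30 in the controls. Here and below, means are given ± SD over 3 sh1, 3 sh3 and 2 control libraries. The adjusted p for the mean of the hairpins was 0.48 for DNAJB11, 0.74 for DNAJC3 and 0.19 for CRELD2. MZB1, an ER co-chaperone on the B and plasma cell list, fell beside SDF2L1 and averaged 5735 ± 398 in sh1, 6138 ± 69.6 in sh3 and 7338 ± 368 in the controls, a difference of -0.31 ± 0.054 (adjusted p = 0.0045) that was not called without control C (adjusted p = 0.090).

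Disulfide isomerases form and shuffle the disulfide bonds of secreted proteins. Of the 4, PDIA3 and PDIA4 fell for the mean of the hairpins and none rose, while PDIA6 and P4HB were lower in sh1 than in sh3. Shares over all genes tested were 6.19% falling and 6.55% rising for the mean, and 5.83% lower in sh1 than in sh3. PDIA3 (ERp57), which works with calnexin and calreticulin, had 7919.9, 7641 and 7953 normalized counts in sh1, 7963, 8067 and 8131 in sh3 and 8485 and 9588 in the controls. All 6 hairpin libraries lay below both controls, and the log2 difference was -0.18 ± 0.048 (adjusted p = 0.031) for their mean and -0.20 ± 0.054 (adjusted p = 0.0495) for sh1. Without control C the difference was -0.09 (adjusted p = 0.37) for the mean and -0.11 (adjusted p = 0.36) for sh1. The pooled call was also lost without sh1 B (adjusted p = 0.062), sh3 A (adjusted p = 0.065) or sh3 B (adjusted p = 0.060), and the sh1 call without any hairpin library in turn (adjusted p = 0.064 to 0.14).

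PDIA4 (ERp72) had 5206, 4922 and 4958 normalized counts in sh1, 4439.7, 4632 and 4660.1 in sh3 and 5229 and 5564 in the controls. It was lowest in sh3, and sh1 lay just below the controls without being called (-0.10 ± 0.051, adjusted p = 0.27). Its difference was -0.24 ± 0.051 (adjusted p = 0.0088) for sh3 and -0.17 ± 0.046 (adjusted p = 0.033) for the mean, where the call for sh3 was lost without control C (adjusted p = 0.10) and that for the mean on leaving out sh1 B, or sh3 A or B, or either control (adjusted p = 0.057 to 0.30). PDIA6 (P5) had 8394, 8856 and 8678 in sh1, 9703, 9762 and 9343 in sh3 and 8581 and 8582 in the controls, and all sh3 libraries were above the rest. It rose by 0.16 ± 0.045 (adjusted p = 0.028) in sh3 and differed by -0.15 ± 0.040 (adjusted p = 0.030) between sh1 and sh3. These calls were lost on leaving out sh3 A or B, or either control (adjusted p = 0.090 to 0.13) for sh3, and on leaving out any sh1 library, or sh3 A or B (adjusted p = 0.056 to 0.12) for sh1 against sh3. P4HB, the archetypal isomerase PDI, had 13403, 13181 and 13347 in sh1, 15105, 14660.5 and 14332 in sh3 and 14396 and 14709 in the controls. The sh1 libraries were the lowest, and P4HB differed by -0.14 ± 0.038 (adjusted p = 0.030) between sh1 and sh3, a call lost on leaving out sh1 B or C, or sh3 A or B (adjusted p = 0.062 to 0.13). Against control, P4HB in sh1 was at -0.13 ± 0.042 (adjusted p = 0.097), not called.

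Among the genes of ER-associated degradation, HERPUD1 fell and EDEM1 split the hairpins. EDEM1 encodes a lectin that marks misfolded glycoproteins for disposal (chr3:5187646-5219957, plus strand). It had 13102, 11352 and 10689 normalized counts in sh1, 18009, 17668 and 18346 in sh3 and 13569 and 11714 in the controls. Every sh3 library was far above all others, and sh1 overlapped the controls. EDEM1 was 1.43-fold higher in sh3 than in control, a log2 difference of 0.51 ± 0.081 (adjusted p = 0.0016), and 1.54-fold lower in sh1 than in sh3, at -0.63 ± 0.073 (adjusted p = 0.00024). Both calls held on leaving out any 1 of the 8 libraries. For sh1 against control it was -0.11 ± 0.081 (adjusted p = 0.46).

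HERPUD1, a membrane protein that organizes the degradation complex, had 1277, 1405 and 1409 normalized counts in sh1, 1605, 1597 and 1559.9 in sh3 and 1615 and 1881 in the controls. The groups did not overlap, with sh1 lowest and the controls highest. Between sh1 and sh3 the log2 difference of -0.22 ± 0.068 (adjusted p = 0.060) was not called. HERPUD1 differed by -0.24 ± 0.068 (adjusted p = 0.037) for the mean of the hairpins and by -0.35 ± 0.076 (adjusted p = 0.021) for sh1. Without control C the difference was -0.13 (adjusted p = 0.40) for the mean and -0.24 (adjusted p = 0.20) for sh1, and the pooled call was also lost without sh1 B, sh3 A, sh3 B or sh3 C (adjusted p = 0.051 to 0.065). SEL1L, the scaffold of the HRD1 ubiquitin ligase, averaged 3774 ± 254 in sh1, 4141 ± 259.7 in sh3 and 4389 ± 251 in the controls. SYVN1, the ligase itself, averaged 1483 ± 116 in sh1, 1429 ± 81.4 in sh3 and 1478 ± 141 in the controls. Neither passed a test, with a pooled adjusted p of 0.14 for SEL1L and 0.89 for SYVN1.

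Of the 4 sensors and kinases, EIF2AK4 was the only member called, and it fell. Beside it, 6.19% of all genes tested fell for the mean of the hairpins and 9.19% for sh3. EIF2AK4 (GCN2), which senses uncharged tRNA, had 1069, 958 and 1046 normalized counts in sh1, 913, 904 and 974 in sh3 and 1069 and 1317 in the controls. All sh3 libraries lay below both controls, and sh1 A was level with control A. Its log2 difference was -0.35 ± 0.093 (adjusted p = 0.024) for sh3, and the pooled difference was -0.28 ± 0.083 (adjusted p = 0.047). The controls themselves were far apart, and the pooled value was -0.43 (adjusted p = 0.023) with control A left out and -0.13 (adjusted p = 0.49) with control C left out. The pooled call was also lost without sh1 B, sh1 C or any sh3 library (adjusted p = 0.052 to 0.086). The sh3 call was lost without sh3 A (adjusted p = 0.071), sh3 B (adjusted p = 0.071) or control C, where the difference was -0.20 (adjusted p = 0.26).

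EIF2AK3 (PERK), the ER kinase of eIF2, had 1448, 1359 and 1393 normalized counts in sh1, 1394, 1369 and 1331 in sh3 and 1155 and 1272 in the controls. All 6 hairpin libraries were above both controls, but the log2 difference of 0.19 ± 0.059 (adjusted p = 0.058) missed the threshold. ATF6, a sensor that is cut in the Golgi to free a transcription factor, had 1677, 1549 and 1727 in sh1, 1944, 1864 and 1797 in sh3 and 1707 and 1713 in the controls, with sh3 above all others. Its pooled difference was 0.04 ± 0.058 (adjusted p = 0.72) and that between sh1 and sh3 -0.18 ± 0.058 (adjusted p = 0.071). Neither was called, nor was sh3 against control at 0.13 ± 0.065 (adjusted p = 0.20). ERN1 (IRE1), the sensor that splices XBP1 mRNA, had 602, 658 and 603 in sh1, 756, 675 and 835 in sh3 and 731 and 671 in the controls. The sh1 libraries were the lowest, yet the differences of -0.04 ± 0.088 (adjusted p = 0.83) for the mean and -0.28 ± 0.088 (adjusted p = 0.066) between sh1 and sh3 missed the threshold. So did sh1 against control, at -0.17 ± 0.099 (adjusted p = 0.33).

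Of the 6 transcription factors, ATF4, XBP1 and CEBPB fell for the mean of the hairpins and none rose. Among all genes tested 6.19% fell and 6.55% rose for that mean. ATF4 (chr22:39519695-39522685, plus strand) had 24628, 25934 and 27005 normalized counts in sh1, 25286, 25258 and 26483 in sh3 and 29150.0 and 31348 in the controls. All hairpin libraries lay below both controls, and sh1 and sh3 overlapped. The log2 difference was -0.23 ± 0.047 (adjusted p = 0.0093) for the mean, -0.23 ± 0.052 (adjusted p = 0.028) for sh1 and -0.24 ± 0.052 (adjusted p = 0.0099) for sh3, and 0.01 ± 0.047 (adjusted p = 0.93) between sh1 and sh3. The call for the mean was lost without control C, at -0.18 (adjusted p = 0.15), as was that for sh3 (adjusted p = 0.12). The sh1 call was lost without sh1 B (adjusted p = 0.078) or control C (adjusted p = 0.22).

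XBP1, the transcription factor made active by IRE1 splicing (chr22:28794555-28800597, minus strand), had 15641, 15839 and 16123 normalized counts in sh1, 16305, 16711 and 16266 in sh3 and 17614 and 18762 in the controls. Again every hairpin library was below both controls. The log2 difference was -0.17 ± 0.039 (adjusted p = 0.016) for the mean, -0.20 ± 0.044 (adjusted p = 0.025) for sh1 and -0.15 ± 0.044 (adjusted p = 0.039) for sh3. The values do not separate spliced from unspliced XBP1. The call for the mean was lost without control C, at -0.13 (adjusted p = 0.21), and under quantile normalization, which also ended the calls for sh1 and sh3. The sh1 call was further lost without sh1 B (adjusted p = 0.078) or control C (adjusted p = 0.21), and the sh3 call on leaving out sh1 B, or any sh3 library, or control C (adjusted p = 0.064 to 0.29).

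CEBPB, a partner of ATF4 and DDIT3 on DNA (chr20:50190734-50192689, plus strand), had 2203, 2197 and 2239 normalized counts in sh1, 2744, 2833 and 2877 in sh3 and 2858 and 2883 in the controls. The sh1 libraries stood clear below all others, and sh3 overlapped the controls. It differed by -0.38 ± 0.050 (adjusted p = 0.0020) for sh1, -0.03 ± 0.050 (adjusted p = 0.76) for sh3 and -0.35 ± 0.045 (adjusted p = 0.00049) between sh1 and sh3. The calls of sh1 against control and of sh1 against sh3 held on leaving out any 1 library. The pooled difference of -0.20 ± 0.045 (adjusted p = 0.015) was not called without control A (adjusted p = 0.072) or control C (adjusted p = 0.14).

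DDIT3 encodes CHOP, the transcription factor tied to cell death in lasting ER stress (chr12:57516588-57521737, minus strand). It had 675, 705 and 745 normalized counts in sh1, 989, 980.0 and 878 in sh3 and 703 and 699 in the controls. Every sh3 library was above all others, and the sh1 and control libraries overlapped. DDIT3 was 1.35-fold higher in sh3 than in control, a log2 difference of 0.43 ± 0.081 (adjusted p = 0.0043), and differed by -0.42 ± 0.073 (adjusted p = 0.0033) between sh1 and sh3. Both calls held on leaving out any 1 library, and for sh1 against control the difference was 0.01 ± 0.081 (adjusted p = 0.95). So within sh3, ATF4 mRNA was lower and DDIT3 mRNA higher than in control. CEBPG, another ATF4 partner, averaged 4372 ± 92.4 in sh1, 4578 ± 126 in sh3 and 4103 ± 6.5 in the controls and differed by 0.16 ± 0.048 (adjusted p = 0.041) for sh3. CREB3L2, a membrane-bound factor like ATF6, averaged 809.8 ± 55 in sh1, 862 ± 72.2 in sh3 and 692 ± 27.1 in the controls and differed by 0.31 ± 0.091 (adjusted p = 0.034) for sh3. The CEBPG call was lost on leaving out sh1 B, or sh3 A or B, or either control (adjusted p = 0.063 to 0.16), and that of CREB3L2 on leaving out sh3 A or C, or either control (adjusted p = 0.071 to 0.20).

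**Figure D3:**
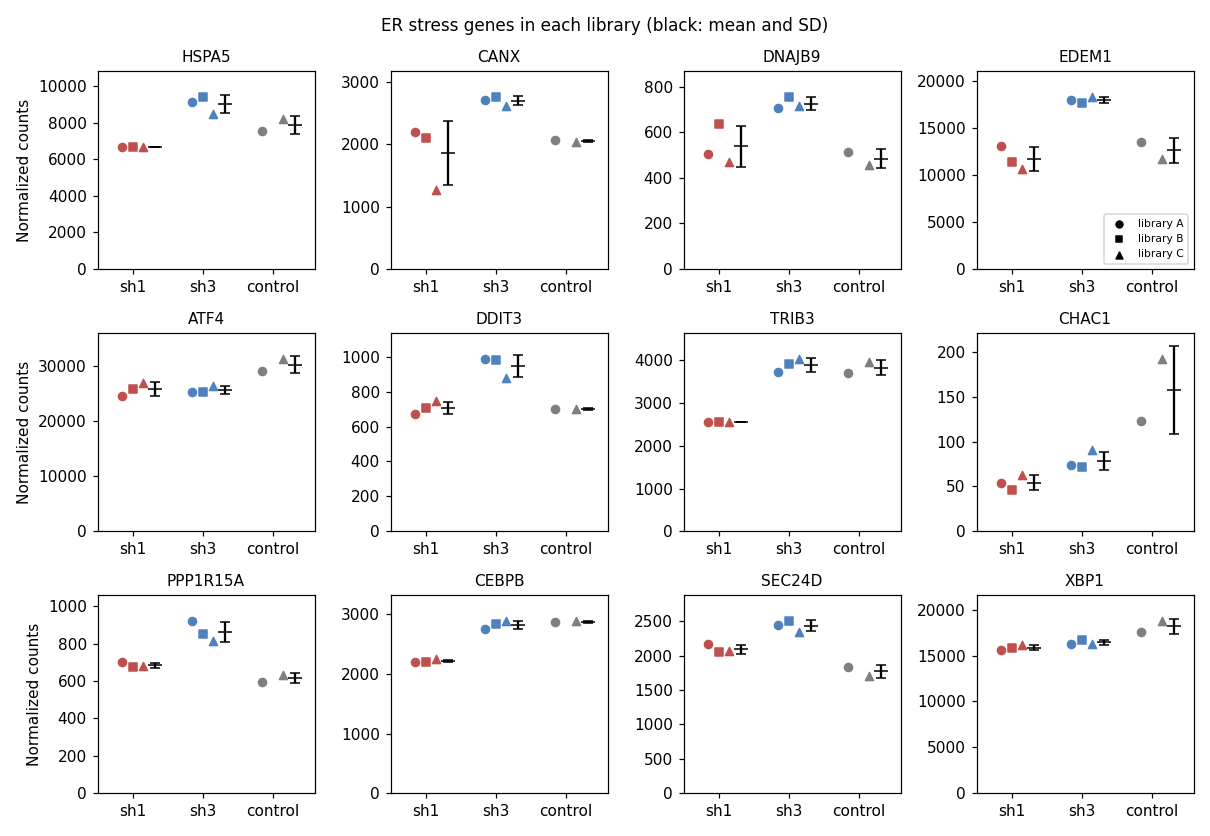
Normalized counts of selected members in each library, with sh1 and sh3 left of control, a point for each library by its letter, and the mean and SD of each group in black. HSPA5 lies below the controls in sh1 (6652 to 6686) and above them in sh3 (8489 to 9416), TRIB3 is low in sh1 alone, and CHAC1 is low in both hairpin groups.

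All 3 effectors of the ATF4 and DDIT3 branch differed from control for the mean of the hairpins, and in unlike ways. CHAC1 and TRIB3 fell and PPP1R15A rose, beside 6.19% of all genes tested that fell and 6.55% that rose. CHAC1, an enzyme that breaks down glutathione (chr15:40952962-40956519, plus strand), had the largest change against control of the 35 members. It had 53.9, 45.9 and 62.9 normalized counts in sh1, 73.8, 71.9 and 90.5 in sh3 and 123 and 193 in the controls. The groups did not overlap, with sh1 lowest and the controls highest and far apart. Between sh1 and sh3 the log2 difference of -0.53 ± 0.21 (adjusted p = 0.13) was not called. CHAC1 was 2.83-fold lower in sh1 and 1.96-fold lower in sh3 than in control, log2 differences of -1.50 ± 0.23 (adjusted p = 0.0044) for sh1, -0.97 ± 0.23 (adjusted p = 0.015) for sh3 and -1.24 ± 0.21 (adjusted p = 0.0039) for their mean. Without control C the difference was -1.18 (adjusted p = 0.072) for sh1, -0.65 (adjusted p = 0.19) for sh3 and -0.92 (adjusted p = 0.090) for their mean. Its promoter, shown above, holds the reversed amino acid response core.

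TRIB3, a pseudokinase that restrains ATF4 and AKT (chr20:362835-397559, plus strand), had 2549.8, 2552 and 2553 normalized counts in sh1, 3723, 3908 and 4035 in sh3 and 3702 and 3959.8 in the controls. The 3 sh1 libraries lay together far below the rest, and sh3 overlapped the controls. TRIB3 was 1.5-fold lower in sh1 than in control, at -0.59 ± 0.054 (adjusted p = 0.00020), and 1.52-fold lower in sh1 than in sh3, at -0.61 ± 0.048 (adjusted p = 2.0e-05). For sh3 against control the log2 difference was 0.02 ± 0.054 (adjusted p = 0.83). Both sh1 calls held on leaving out any 1 library, while the pooled difference of -0.28 ± 0.048 (adjusted p = 0.0042) was not called without control C (adjusted p = 0.086).

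PPP1R15A encodes GADD34, the phosphatase subunit that restores eIF2 and so protein synthesis (chr19:48872392-48876057, plus strand). It had 699.9, 676 and 678 normalized counts in sh1, 921, 852 and 815 in sh3 and 597 and 633 in the controls. The controls were lowest and sh3 highest, with no overlap between groups. PPP1R15A was 1.4-fold higher in sh3 than in control, at 0.49 ± 0.079 (adjusted p = 0.0020), a call that held on leaving out any 1 library. The difference was 0.15 ± 0.079 (adjusted p = 0.28) for sh1, 0.32 ± 0.071 (adjusted p = 0.014) for the mean and -0.33 ± 0.071 (adjusted p = 0.012) between sh1 and sh3. The pooled call was lost without control A (adjusted p = 0.11) or control C (adjusted p = 0.081), and that of sh1 against sh3 without sh3 A (adjusted p = 0.058).

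Among the genes of entry into and exit from the ER, the coat gene SEC24D rose for the mean of the hairpins. The channel genes SEC61A1 and SEC61B fell for that mean, as 6.19% of all genes tested did, while 6.55% rose. SEC24D encodes a cargo adaptor of COPII vesicles, which carry proteins out of the ER (chr4:118722823-118838683, minus strand). It had 2162, 2048 and 2063 normalized counts in sh1, 2448, 2502 and 2344 in sh3 and 1839.6 and 1699.6 in the controls, with no overlap and the controls lowest. SEC24D rose in both, with log2 differences of 0.24 ± 0.060 (adjusted p = 0.038) for sh1, 0.46 ± 0.060 (adjusted p = 0.00050) for sh3 and 0.35 ± 0.054 (adjusted p = 0.0024) for the mean, and -0.22 ± 0.054 (adjusted p = 0.023) between sh1 and sh3. The sh3 call held on leaving out any 1 library. The pooled call was lost without control C (adjusted p = 0.055), the sh1 call on leaving out any sh1 library, or sh3 A or B, or either control (adjusted p = 0.056 to 0.27), and the sh1 against sh3 call on leaving out sh1 B or C, or sh3 A or B (adjusted p = 0.066 to 0.096).

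SEC61A1 encodes the pore of the channel through which new proteins enter the ER. It had 6903, 6123 and 6302 normalized counts in sh1, 6082, 6230.0 and 6208 in sh3 and 7599.8 and 7254 in the controls. SEC61B encodes a small subunit of the same channel and had 1287, 1518 and 1484 in sh1, 1419, 1441 and 1465 in sh3 and 1634 and 1792 in the controls. For both, every hairpin library lay below both controls, and sh1 and sh3 overlapped. The log2 difference for the mean was -0.24 ± 0.050 (adjusted p = 0.012) for SEC61A1 and -0.25 ± 0.070 (adjusted p = 0.036) for SEC61B, and that for sh3 was -0.27 ± 0.056 (adjusted p = 0.0075) for SEC61A1 and -0.25 ± 0.078 (adjusted p = 0.049) for SEC61B. The SEC61A1 calls were lost without control A (adjusted p = 0.099) or control C (adjusted p = 0.068) for the mean, and without control A (adjusted p = 0.059) for sh3. The SEC61B calls were lost on leaving out any sh3 library, or either control (adjusted p = 0.051 to 0.32) for the mean, and on leaving out sh1 B or C, or any sh3 library, or either control (adjusted p = 0.051 to 0.32) for sh3.

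Per kilobase of exon, the members span a wide range of levels in the controls. ATF4 stood highest at a mean of 12032 normalized counts per kb, followed by CALR at 9131, XBP1 at 8920 and P4HB at 5586. HSPA5 was at 2012 and EDEM1 at 1995, and CEBPG was the median member at 930.1. CREB3L2 at 81.8, CHAC1 at 76.7 and ERN1 at 71.6 were the lowest. Both the highest (ATF4) and the second lowest (CHAC1) were thus among the members that fell with both hairpins.

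The members were also counted by promoter match. Of the 10 members with CCAAT or ATTGG paired with CCACG, 6 were lower in sh1 than in sh3, with a median log2 difference of -0.17. Of the 23 without, 8 were lower, with a median of -0.13. For the mean of the hairpins 3 of the 10 and 8 of the 23 fell. Over all genes tested, 5.83% were lower in sh1 than in sh3 and 6.19% fell for the mean. Whether members with and without a match differ was not tested. Of the 4 with the amino acid response core, CHAC1 and HERPUD1 fell for the mean of the hairpins. The other carriers, CEBPG (0.12 ± 0.043) and CREB3L2 (0.27 ± 0.081), lay above control for that mean without being called, and rose with sh3. The median of the 4 for the mean was -0.06. A match is a run of letters within 300 bases, not a bound site.

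Other genes of the same pathways were counted from 7 lists chosen by role. The lists, like the members, were chosen with earlier results of these data known, so their shares give no independent test. The largest count was among 40 tested targets of ATF4 and DDIT3 other than the members, such as amino acid transporters and synthetases. Of these 2 rose and 18 fell for the mean of the hairpins, 0 rose and 20 fell for sh1, and 6 rose and 12 fell for sh3, with a median log2 difference of -0.17 for the mean, -0.21 for sh1 and -0.08 for sh3. In sh1 against sh3 0 were higher and 15 lower, beside 5.61% and 5.83% of all genes. Over all genes tested, 6.55% rose and 6.19% fell for the mean, 2.88% and 3.43% for sh1, and 9.36% and 9.19% for sh3. SLC7A5 and SLC3A2, the subunits of the leucine transporter LAT1, had the smallest p among the falls, and the lowest log2 difference in the list was -1.10. SLC7A5 averaged 8499 ± 677 in sh1, 9462 ± 748 in sh3 and 14534 ± 509 in the controls, a log2 difference of -0.70 ± 0.066 (adjusted p = 0.00011) for the mean of the hairpins. SLC3A2 averaged 6350.3 ± 153 in sh1, 6358 ± 94.5 in sh3 and 8679 ± 417 in the controls, a difference of -0.45 ± 0.043 (adjusted p = 0.00011). Both calls held on leaving out any 1 library. The genes that rose for the mean were DDIT4, an mTORC1 inhibitor, at 0.46 ± 0.10 (adjusted p = 0.015), and KLHL24 at 0.35 ± 0.080 (adjusted p = 0.017). DDIT4 was at 0.13 ± 0.12 (adjusted p = 0.57) for sh1, 0.80 ± 0.12 (adjusted p = 0.00094) for sh3 and -0.67 ± 0.10 (adjusted p = 0.0016) between sh1 and sh3. KLHL24 was at 0.21 ± 0.090 (adjusted p = 0.19) for sh1 and 0.48 ± 0.090 (adjusted p = 0.0043) for sh3. Without control C the adjusted p was 0.23 for DDIT4 and 0.18 for KLHL24, and KLHL24 was also lost without control A.

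Transport from the ER to the Golgi, the pathway of SEC24D, was counted next. Of 29 tested genes 5 rose and 0 fell for the mean of the hairpins, 3 rose and 0 fell for sh1, and 8 rose and 2 fell for sh3. The shares that rose were 17.2% for the mean, 10.3% for sh1 and 27.6% for sh3, against 6.55%, 2.88% and 9.36% of all genes tested. ARFGAP3, which acts on coats of the return route, averaged 4906 ± 104 in sh1, 5075 ± 167 in sh3 and 3461 ± 88.6 in the controls and differed by 0.53 ± 0.044 (adjusted p = 6.0e-05). That call held on leaving out any 1 library. SEC31A, an outer coat protein of COPII, averaged 6897 ± 215 in sh1, 6919.6 ± 178 in sh3 and 5860.0 ± 204 in the controls and differed by 0.24 ± 0.044 (adjusted p = 0.0058), not called without control A (adjusted p = 0.063).

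Among 27 other tested genes of ER-associated degradation 2 rose and 0 fell for the mean of the hairpins, a share of 7.41% rising that is close to the 6.55% of all genes. UBE2J1, an ER-anchored ubiquitin-conjugating enzyme, averaged 7427 ± 311 in sh1, 7890.2 ± 549 in sh3 and 5994 ± 151 in the controls, a difference of 0.35 ± 0.055 (adjusted p = 0.0028) that held on leaving out any 1 library. EDEM3, a mannosidase related to EDEM1, averaged 3557 ± 231 in sh1, 4615 ± 207 in sh3 and 3455 ± 164 in the controls. Its difference of 0.23 ± 0.058 (adjusted p = 0.025) was lost without sh3 B, control A or control C (adjusted p up to 0.25). EDEM3 was at 0.04 ± 0.065 (adjusted p = 0.76) for sh1 and 0.42 ± 0.065 (adjusted p = 0.0015) for sh3, and like EDEM1 it differed between sh1 and sh3, by -0.38 ± 0.058 (adjusted p = 0.0016).

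Of 18 tested genes of eIF2, eIF2B and their kinases and phosphatases 3 rose (16.7%) and 0 fell for the mean of the hairpins, while 6.55% of all genes rose and 6.19% fell. EIF2B3, a subunit of the exchange factor eIF2B, differed by 0.28 ± 0.064 (adjusted p = 0.017), and EIF2A, an initiation factor separate from eIF2, by 0.17 ± 0.045 (adjusted p = 0.030). In sh1 EIF2B3 was at 0.19 ± 0.072 (adjusted p = 0.15) and EIF2A at 0.08 ± 0.051 (adjusted p = 0.41), and in sh3 EIF2B3 was at 0.37 ± 0.072 (adjusted p = 0.0050) and EIF2A at 0.27 ± 0.051 (adjusted p = 0.0046). EIF2B3 was not called on leaving out either control (adjusted p up to 0.12), and EIF2A on leaving out either control, sh1 B, sh3 A or sh3 B (adjusted p up to 0.24). Of 17 sensor partners and related factors 2 rose (11.8%) and 1 fell (5.88%), the last close to the share of all genes. CREBRF, a regulator of CREB3, differed by 0.47 ± 0.11 (adjusted p = 0.023), RTCB, the ligase that joins the XBP1 exons, by 0.18 ± 0.047 (adjusted p = 0.032), and NFYA, which binds CCAAT, by -0.17 ± 0.045 (adjusted p = 0.032). CREBRF was at 0.22 ± 0.13 (adjusted p = 0.35) for sh1 and 0.71 ± 0.13 (adjusted p = 0.0035) for sh3. CREBRF was lost without control C (adjusted p = 0.30), and RTCB and NFYA each on leaving out either control, sh1 B, sh3 A or sh3 B (adjusted p up to 0.20 and 0.31).

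Of 31 other ER chaperones and oxidoreductases 2 rose (6.45%) and 4 fell (12.9%) for the mean of the hairpins, while 6.55% of all genes rose and 6.19% fell. In this list 1 was higher (3.23%) and 5 lower (16.1%) in sh1 than in sh3, beside 5.61% and 5.83% of all genes. The median log2 difference between sh1 and sh3 was -0.01, with 16 estimates below 0 and 15 above. The prolyl isomerase FKBP14 rose by 0.43 ± 0.087 (adjusted p = 0.0093) on the log2 scale and the co-chaperone DNAJC1 by 0.35 ± 0.100 (adjusted p = 0.040). The prolyl isomerase PPIB differed by -0.26 ± 0.055 (adjusted p = 0.013) and the chaperone ERP29 by -0.25 ± 0.057 (adjusted p = 0.017). FKBP14, PPIB and ERP29 were lost without control C (adjusted p = 0.13, 0.17 and 0.22), and DNAJC1 without sh1 C, sh3 A, sh3 C or either control (adjusted p up to 0.20). Of 30 genes of the translocon, signal peptidase and N-glycosylation 2 rose (6.67%) and 2 fell (6.67%), close to the shares of all genes. GFPT1, which starts hexosamine synthesis and is a target of XBP1, differed by 0.27 ± 0.060 (adjusted p = 0.014) and SEC61A2, a paralog of SEC61A1, by 0.31 ± 0.076 (adjusted p = 0.022). SSR4, a subunit of the translocon-associated complex, differed by -0.38 ± 0.069 (adjusted p = 0.0055) and RPN2, a subunit of oligosaccharyltransferase, by -0.20 ± 0.041 (adjusted p = 0.0094). GFPT1, SSR4 and RPN2 were lost without control C (adjusted p = 0.22, 0.083 and 0.15), and SEC61A2 on leaving out either control (adjusted p up to 0.15). GFPT1 was at 0.10 ± 0.067 (adjusted p = 0.41) for sh1 and 0.44 ± 0.067 (adjusted p = 0.0013) for sh3, and PPIB at -0.36 ± 0.062 (adjusted p = 0.0075) for sh1 and -0.15 ± 0.062 (adjusted p = 0.12) for sh3.

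**Figure D4:**
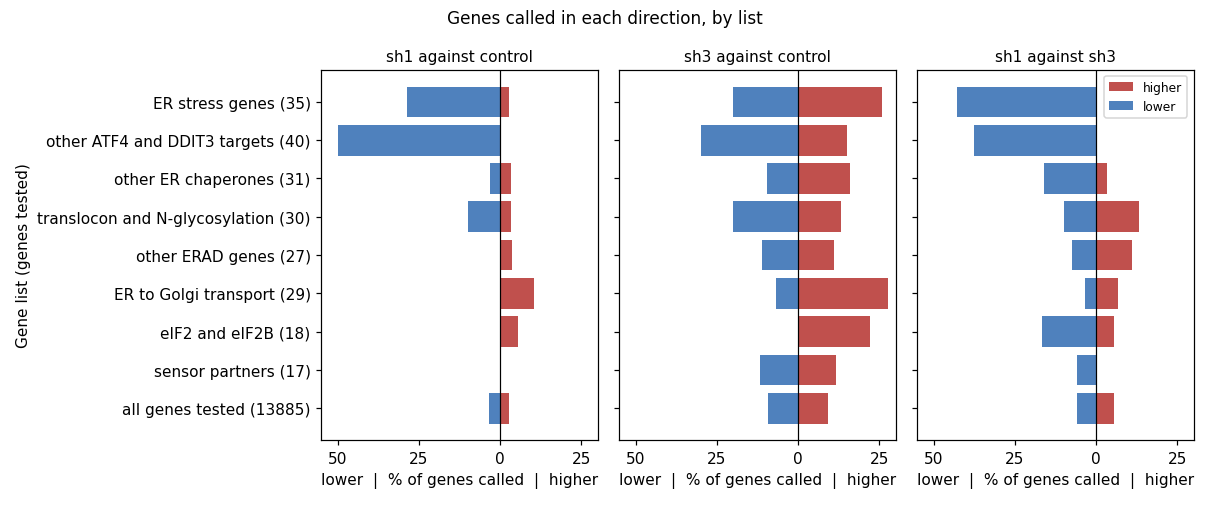
Share of tested genes, in percent, that were higher (red, right of 0) or lower (blue, left of 0) at an adjusted p under 0.05 in the 35 members, the 7 pathway lists and all 13885 genes, for sh1 against control, sh3 against control and sh1 against sh3. Of the 40 other ATF4 and DDIT3 targets 20 were lower in sh1 than in control and 15 lower in sh1 than in sh3, and of the 29 genes of ER to Golgi transport 8 were higher in sh3 than in control.

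Some members share sequence with other genes. In all, 10 members overlap another coding gene, among them HSP90B1 with C12orf73, CANX with CBY3, DNAJB9 with PNPLA8 and THAP5, DDIT3 with MARS, and SEC61A1 with MGLL and RUVBL1. On the same strand, SYVN1 overlaps FAU, DDIT3 overlaps AC022506.1 and DNAJB11 overlaps AC068631.2. The use of strand in counting was not given in the sources used here, so reads of such partners cannot be told apart with certainty. PDIA3, XBP1 and ATF4 have processed pseudogenes to which reads could be split, and their values are uncertain to that extent.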

How the data were processed

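Strand-specific libraries were made from RNA of DND41 cells, per the labels' protocols. The authors deposited a signal for each gene symbol, a count normalized between libraries. Their processing notes, written by the submitters, name hg38, DESeq and kallisto 0.44.0. The annotation and filters were not given in the sources used here. Values are not whole numbers and whole reads could not be recovered, so no test for counts was used and the raw depth and its precision are unknown.

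The values were analysed as log2(value + 1), which understates the change of low genes, for the 13885 of 18133 genes whose mean over the 8 libraries reached 10. The model (limma 3.58.1, R 4.3.3) fitted a mean per group for 3 groups, with 5 residual degrees of freedom and a variance prior that followed the mean. The comparisons were the mean of sh1 and sh3 against control, sh1 against control, sh3 against control, and sh1 against sh3. All tests were two-sided, with p-values adjusted by the Benjamini-Hochberg method over all genes tested and calls at an adjusted p under 0.05. The ± after a log2 difference is its standard error. The procedure was tested on simulated data. Groups come from the titles of the samples. Same-letter libraries correlated at -0.062 to 0.058 in their deviations from group means, so the letters were not taken to pair libraries.

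The members and gene lists were chosen with earlier results of these data known. The members given in every library are those called for the mean of the hairpins or for sh1 against sh3, and HSPA5, XBP1, ATF6, ERN1, EIF2AK3, EIF2AK4, ATF4 and DDIT3. Up to 2 genes per list and direction are named, those with the smallest p for the mean of the hairpins. Gene coordinates and exon lengths are from GENCODE 29 (GRCh38, also called hg38), and promoters from RefSeq. Protein sequences were not used here.

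Alternatives were other pseudocounts (0.5 and 10), no filter and a mean of at least 50, quantile and upper quartile rescaling, no variance trend, fits of only the groups compared, a replicate block, and leaving out each library.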

Additional observations from a re-analysis of the deposited data

Results flagged for a closer look

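The 15 members below were singled out because the effects of sh1 and sh3 against the same controls differed from each other in a direct test (sh1 minus sh3, limma with Benjamini-Hochberg adjustment). In that test 5.61% of all genes tested were higher and 5.83% lower in sh1. Without sh3 A 10 of the 15 calls were lost, and without sh3 C 4. Every sh1 library lay below every sh3 library for these members, but they were picked by this same comparison, so that adds no support. The share of all genes without such overlap was not counted. The log2 difference was -0.63 ± 0.073 for EDEM1, -0.61 ± 0.048 for TRIB3, -0.58 ± 0.16 for CANX, -0.44 ± 0.11 for DNAJB9, -0.43 ± 0.049 for HSPA5 and -0.42 ± 0.073 for DDIT3. It was -0.35 ± 0.089 for HYOU1, -0.35 ± 0.045 for CEBPB, -0.33 ± 0.071 for PPP1R15A, -0.22 ± 0.054 for SEC24D and -0.19 ± 0.054 for MANF. The smallest were -0.18 ± 0.045 for HSP90B1, -0.15 ± 0.044 for CALR, -0.15 ± 0.040 for PDIA6 and -0.14 ± 0.038 for P4HB. SIRT1 mRNA itself averaged 1299.7 ± 36.5 normalized counts in sh1, 1165 ± 60.1 in sh3 and 1832 ± 123 in the controls. The T lineage marker sum was higher in every sh1 library than in every sh3 library, and the sums of B and plasma cell and of adherent cell markers were lower. Of the 8 T lineage markers 7 had a higher estimate in sh1 than in sh3. LCK went the other way, with 3933 to 4150 normalized counts in sh1 and 4392 to 4443 in sh3. Of the 6 B and plasma cell markers 4 had a lower and 2 a higher estimate in sh1 than in sh3. JCHAIN was higher, with 141 to 259 in sh1 and 116 to 150 in sh3. KRT8, the only adherent cell marker tested, had 26.6 to 43.4 in sh1 and 25.2 to 47.2 in sh3. The part of any of these in the differences was not tested.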

How the results depend on the processing

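The count of called members stayed within 1.5 times of 14 for the mean of the hairpins, 11 for sh1, 16 for sh3 and 15 for sh1 against sh3 under other pseudocounts, filters and rescalings. Without the variance trend the counts were 5 for the mean of the hairpins, 3 for sh1, 8 for sh3 and 6 for sh1 against sh3, and with only the groups compared the sh1 count was 4. With the replicate block the sh1 count was 7, and the block moved no other count of called members by over 1.5 times. It ended the calls of SDF2L1, PDIA3, PDIA4 and EIF2AK4 for the mean, HSPA5, SDF2L1, PDIA3 and SEC24D for sh1, HSPA5, PDIA6, XBP1 and CEBPG for sh3, and MANF and P4HB for sh1 against sh3. Without the filter, the calls of EIF2AK4 (mean), PDIA3 (sh1), CEBPG and SEC61B (sh3), and CALR and MANF (sh1 against sh3) were lost, and quantile normalization ended those of EIF2AK4, CEBPG, MANF and all 3 of XBP1. Leaving out 1 library gave 0 to 16 calls for the mean of the hairpins, 2 to 10 for sh1, 6 to 16 for sh3 and 5 to 15 for sh1 against sh3. The 0 came without control C, where 12 members had an unadjusted p under 0.05. The calls that held under every alternative run were those of EDEM1, DDIT3, PPP1R15A and SEC24D for sh3, of CEBPB and TRIB3 for sh1, and of HSPA5, EDEM1, DDIT3, CEBPB and TRIB3 for sh1 against sh3. No called member changed sign under any alternative run. The control arm has 2 libraries, so calls against control rest on each of them, and the cause of the differences was not tested.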
